A study of Homo sapiens with 10 samples.

Results

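The 10 genes described here mark epithelial or mesenchymal identity and were followed in C33A cells transfected with a SWI/SNF ATPase. They were chosen by name: CDH1, CDH3, EPCAM, CLDN1 and TJP1 for cell adhesion and junctions of epithelia, CDH2 and VIM for mesenchymal cells, and ZEB1, ZEB2 and SNAI2 for transcription factors that repress epithelial genes. All 10 were matched by symbol among the 63152 gene identifiers of the series, and 8 of them passed the filter on low reads for the main test.

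C33A is a human cervical carcinoma cell line, which the study describes as deficient in SWI/SNF. All cells were transiently transfected, and RNA was taken after 48 h. The control cells received the plasmid pOPRSVI, and the other groups received pBJ5-BRG1 (BRG1-wt), pBJ5-BRG1-K798R (BRG1-mut, ATPase-deficient), pCG-hBrm (BRM-wt) or pCG-hBrm-K798R (BRM-mut, ATPase-deficient). Each of the 5 groups had 2 replicates, and nothing in the labels says whether these were separate cultures, so p-values measure the spread between these libraries, which may be technical. The ATPases came from plasmids in 1 cell line, so a level is a mean over cells that took up the plasmid and cells that did not, and in bulk RNA fewer expressing cells and less RNA per cell cannot be told apart.

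BRG1 and BRM are the motor subunits of SWI/SNF complexes, which use ATP to move nucleosomes and so open or close promoters and enhancers. Epithelial cells hold together through E-cadherin, claudins and tight junction proteins. In the epithelial to mesenchymal transition, ZEB and SNAI factors bind E-box motifs and silence these genes, while N-cadherin and vimentin rise. Carcinoma cells can sit anywhere between these states.

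The reads of each library were recovered from the deposited means of normalised counts. The 10 libraries held 30761464 to 43364950 reads on genes, and because the means carry no replicate numbers, the libraries of a group are called a (the deeper) and b. Normalised reads are reads divided by the size factor of the library. The transfected genes checked the labels. The deposited mean over 2 group and 2 control libraries for SMARCA4, which encodes BRG1, was 25802 in the BRG1-wt table and 29824 in the BRG1-mut table but 3864 and 3076 in the tables of BRM-wt and BRM-mut. For SMARCA2, which encodes BRM, it was 59658 and 75591 in the BRM-wt and BRM-mut tables and 12.6 and 9.33 in those of BRG1-wt and BRG1-mut. The control libraries held 4235 and 2497 reads of SMARCA4. Libraries of 1 group stood apart along the GC content of genes: across 11746 genes, the Spearman correlation of a gene's deviation from its mean with its exonic GC content ran from -0.82 in BRM-mut b to 0.80 in BRG1-mut a, with 0.51 for control a, -0.70 for control b, -0.79 for BRM-wt a and 0.80 for BRM-wt b. The median difference between the 2 libraries of a group was 0.14 to 0.42 on the log2 scale, with BRM-wt at the top. Results are therefore also given after the GC trend of each library was divided out of its reads. Both BRG1-mut libraries shared a strong trend, so dividing it out can also take away a difference between groups.

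In control cells VIM, TJP1 and ZEB1 were abundant, and the epithelial cadherin CDH1 was nearly absent. Levels per kilobase of exonic sequence put VIM first, with 2168 ± 155 normalised reads per kilobase (SD, n = 2), followed by TJP1 with 756 ± 37.2 and ZEB1 with 408 ± 9.19. EPCAM (10.4 ± 1.67) and CDH2 (9.62 ± 1.71) came next and overlapped between the control libraries, so their order is not set. ZEB2 had 4.83 ± 0.912 and CDH3 1.02 ± 0.511. CDH1 (0.414 ± 0.0981), SNAI2 (0.298 ± 0.422) and CLDN1 (0.135 ± 0.191) were lowest, and CDH1 overlapped SNAI2, as SNAI2 did CLDN1.

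**Figure D1:**
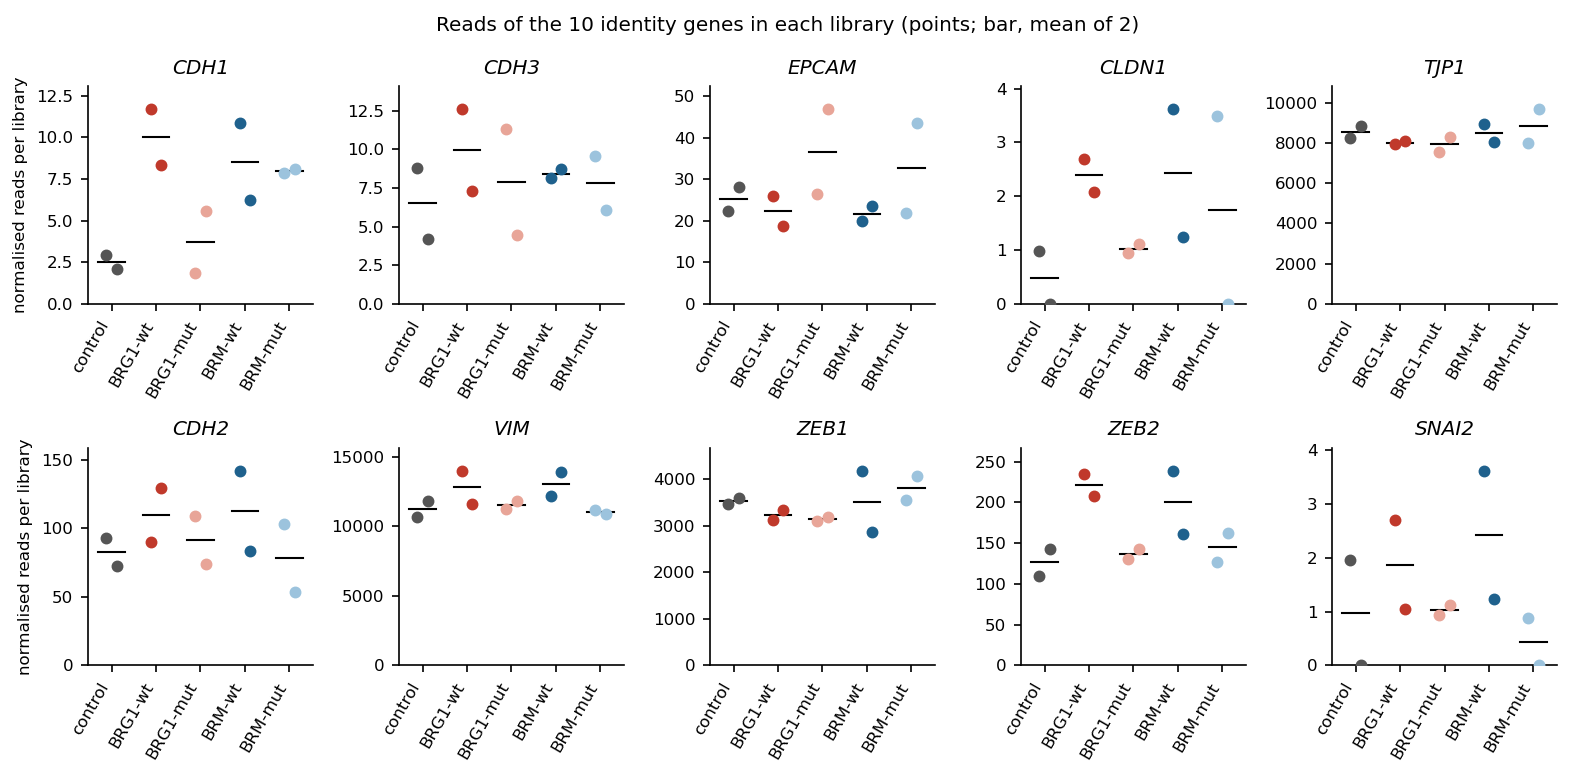
Normalised reads (y axes, linear from 0) of the 10 genes in each library, with 2 points and a bar at the mean for each of the 5 groups on the x axes. CDH1 and ZEB2 lie above both control libraries in both libraries of BRG1-wt and of BRM-wt, and CDH1 also in BRM-mut. Of all tested genes, 18.1%, 10.3% and 10.7% have that order in BRG1-wt, BRM-wt and BRM-mut. CDH1 passed the filter on low reads only through BRG1-wt a and BRM-wt a, where it is high. TJP1, VIM and ZEB1 stay within a highest-to-lowest ratio of 1.28 to 1.46 over all 10 libraries.

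No member passed the threshold in any of the 7 comparisons made, by limma-voom with an adjusted p under 0.05 over 17943 genes. The share of all genes called was 0.145% in BRG1-wt against control (26 genes), 0% in BRG1-mut, 0.184% in BRM-wt (33 genes) and 0% in BRM-mut. It was 0.078% (14 genes) for BRG1-wt against BRG1-mut, 0.167% (30 genes) for BRM-wt against BRM-mut and 0% for BRG1-wt against BRM-wt. At an unadjusted p under 0.05, the members counted were CDH1 and ZEB2 in BRG1-wt against control (2 of 8, with 4.53% of all genes), the same 2 in BRM-wt against control (4.39% of all genes), both again in BRG1-wt against BRG1-mut (4.08%) and CDH1 alone in BRM-mut against control (0.713%). CDH1 passed the filter of 10 reads in 2 libraries only through BRG1-wt a and BRM-wt a, where it is high, so its place in these counts, and in those of the next paragraph, is a description that supports nothing. No member stood at an unadjusted p under 0.05 in BRG1-mut against control (1.65% of all genes), BRM-wt against BRM-mut (4.66%) or BRG1-wt against BRM-wt (0.669%). limma-trend, with either pseudocount tried, also called 0 members at the adjusted threshold.

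A weaker sign, both libraries of a group above or below both of another after scaling, was common among all genes. Against control, both libraries lay above for 18.1% of genes in BRG1-wt (2 members, CDH1 and ZEB2), 30.5% in BRG1-mut (0 members), 10.3% in BRM-wt (3 members, CDH1, VIM and ZEB2) and 10.7% in BRM-mut (1 member, CDH1). Both lay below for 19.5% in BRG1-wt (2 members, TJP1 and ZEB1), 25% in BRG1-mut (1 member, ZEB1), 9.43% in BRM-wt and 9.59% in BRM-mut (0 members each). BRG1-wt lay above BRG1-mut for 19.3% (2 members, CDH1 and ZEB2) and below for 28.7% (1 member, EPCAM). BRM-wt lay above BRM-mut for 10.1% (1 member, VIM) and below for 10.2% (0 members), and BRG1-wt lay above BRM-wt for 6.67% and below for 6.49% (0 members each). With the GC trend of each library divided out, 0 members were called, while 0.777% of genes were called in BRG1-wt against control, 0.00575% in BRG1-mut, 0.944% in BRM-wt and 0% in BRM-mut, 0.575% for BRG1-wt against BRG1-mut, 0.932% for BRM-wt against BRM-mut and 0.00575% for BRG1-wt against BRM-wt. At an unadjusted p under 0.05 in those fits stood CDH1 and ZEB2 in BRG1-wt (8.19% of all genes), no member in BRG1-mut (2.98%), CDH1, VIM and ZEB2 in BRM-wt (8.03%) and CDH1 in BRM-mut (1.2%). There were also CDH1 and ZEB2 for BRG1-wt against BRG1-mut (7.57%), ZEB2 for BRM-wt against BRM-mut (8.25%) and none for BRG1-wt against BRM-wt (1.2%).

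**Figure D2:**
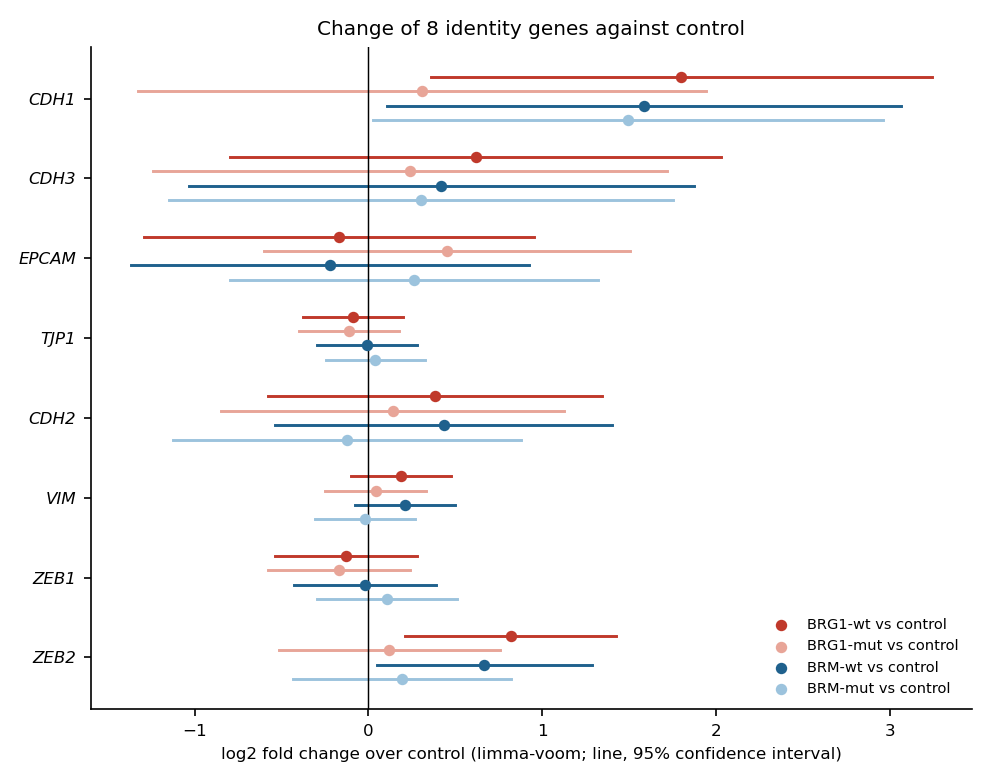
Log2 fold change over control (x axis, points) with its 95% confidence interval (lines) for the 8 tested members (y axis), in 4 colours for the 4 groups, from limma-voom. The intervals exclude 0 for CDH1 in BRG1-wt, BRM-wt and BRM-mut and for ZEB2 in BRG1-wt and BRM-wt, before any correction for the 17943 genes. CDH1 entered the fit only through 1 library of BRG1-wt and 1 of BRM-wt, in which it is high, so its intervals are no support for a difference.

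CDH1 (ENSG00000039068, chromosome 16 of GRCh37 from 68771195 to 68869440, plus strand) encodes E-cadherin, the adhesion protein that defines epithelial cell contacts. It had 3 and 2 reads in control, 13 and 8 in BRG1-wt, 2 and 5 in BRG1-mut, 12 and 5 in BRM-wt and 9 and 8 in BRM-mut. Apart from BRG1-mut, each group lay with both libraries above both control libraries after scaling, and the BRG1-mut libraries overlapped them. The summed reads were 5 in control (95% exact Poisson interval 1.62 to 11.7) and 21 in BRG1-wt (13.0 to 32.1), intervals that cover counting error only. CDH1 reached the filter only through BRG1-wt a (13 reads) and BRM-wt a (12), and its differences are therefore given as a description. The difference from control on the log2 scale was 1.80 (SE 0.62, adjusted p = 0.754, limma) for BRG1-wt, 1.59 (SE 0.64, adjusted p = 1.00) for BRM-wt, 1.49 (SE 0.63, adjusted p = 0.995) for BRM-mut and 0.31 (SE 0.70) for BRG1-mut. Without the filter, which removes that selection, the difference was 1.80 for BRG1-wt (unadjusted p = 0.0219, adjusted p = 0.689, limma), 1.58 for BRM-wt (0.0417 and 0.953) and 1.49 for BRM-mut (0.0507 and 0.982). The difference of BRG1-wt from BRG1-mut was 1.49 (95% confidence interval 0.11 to 2.87, adjusted p = 0.977), 0.76 without BRG1-mut a and 2.14 without BRG1-mut b, while BRM-wt and BRM-mut differed by 0.093 (-1.13 to 1.32). Even the highest value, 1.92 normalised reads per kilobase in BRG1-wt a, was below that of ZEB2 or EPCAM in every library. By limma-trend with a pseudocount of 5, the log2 difference in BRG1-wt was 0.99.

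CDH3 (ENSG00000062038), P-cadherin of basal epithelia, lies beside CDH1 on chromosome 16, from 68670092 to 68761371 on the same strand. It had 9 and 4 reads in control, 14 and 7 in BRG1-wt, 12 and 4 in BRG1-mut, 9 and 7 in BRM-wt and 11 and 6 in BRM-mut. Every group overlapped the control libraries, and the log2 differences of 0.24 to 0.62 had standard errors of 0.61 to 0.64.

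EPCAM (ENSG00000119888, chromosome 2 from 47572297 to 47614740, plus strand), an epithelial surface glycoprotein, gave 23 and 27 reads in control, 29 and 18 in BRG1-wt, 28 and 42 in BRG1-mut, 22 and 19 in BRM-wt and 25 and 43 in BRM-mut. Every group overlapped the control libraries. Its log2 difference from control was -0.17 (SE 0.48) in BRG1-wt and -0.22 (SE 0.49) in BRM-wt, against 0.45 (SE 0.45) in BRG1-mut and 0.26 (SE 0.46) in BRM-mut. After scaling, both BRG1-wt libraries lay below both BRG1-mut libraries, which held for 28.7% of all genes, and the log2 difference was -0.62 (95% confidence interval -1.69 to 0.45, adjusted p = 0.977).

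CLDN1 (ENSG00000163347, chromosome 3 from 190023496 to 190040235, minus strand), a strand-forming claudin of tight junctions, was below the filter on low reads. Its reads were 1 and 0 in control, 3 and 2 in BRG1-wt, 1 and 1 in BRG1-mut, 4 and 1 in BRM-wt and 4 and 0 in BRM-mut. In the fits without the filter it was not called in any comparison, and a difference between these groups was not detectable at this depth.

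TJP1 (ENSG00000104067, chromosome 15 from 29991571 to 30261118, minus strand) encodes ZO-1, which ties tight junction proteins to actin. It had 8441 and 8463 reads in control, 8864 and 7754 in BRG1-wt, 8024 and 7444 in BRG1-mut, 9904 and 6477 in BRM-wt and 9170 and 9542 in BRM-mut. The log2 difference from control was -0.091 for BRG1-wt, -0.11 for BRG1-mut, -0.0084 for BRM-wt and 0.039 for BRM-mut. The 4 confidence intervals together reached from -0.40 to 0.33, which is 0.759-fold to 1.25-fold. After scaling, both BRG1-wt libraries lay below both control libraries, an order that 19.5% of all genes had, and the other groups overlapped the control libraries. HMGN2P5, a pseudogene with 2025 to 3178 reads per library, overlaps 273 bases of TJP1 on the opposite strand, and without strand their reads there cannot be told apart.

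CDH2 (ENSG00000170558, chromosome 18 from 25512843 to 25757910, minus strand) is N-cadherin, the cadherin of neural and mesenchymal cells. Its reads were 95 and 69 in control, 100 and 124 in BRG1-wt, 116 and 66 in BRG1-mut, 157 and 67 in BRM-wt and 118 and 53 in BRM-mut. All groups overlapped the control libraries, with log2 differences of 0.38 (SE 0.41), 0.14 (SE 0.43), 0.43 (SE 0.42) and -0.12 (SE 0.43) in the same order. Library a was the higher of the pair in BRM-wt and in BRM-mut, at 142 against 83.2 and at 103 against 53.8 normalised reads.

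VIM (ENSG00000026025, chromosome 10 from 17270240 to 17279592, plus strand), the intermediate filament of mesenchymal cells, was the most abundant member in every library. Normalised reads were 10654 and 11787 in control, 13990 and 11615 in BRG1-wt, 11277 and 11806 in BRG1-mut, 12159 and 13897 in BRM-wt and 11185 and 10892 in BRM-mut. Only BRM-wt lay above both control libraries, with a log2 difference of 0.21 (95% confidence interval -0.076 to 0.50, adjusted p = 1.00). The difference was 0.19 (-0.10 to 0.48) in BRG1-wt, 0.042 (-0.25 to 0.33) in BRG1-mut and -0.021 (-0.31 to 0.27) in BRM-mut. An antisense gene, VIM-AS1, overlaps VIM and had 45 to 100 reads per library.

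ZEB1 (ENSG00000148516, chromosome 10 from 31607424 to 31818742, plus strand) is a zinc finger repressor of CDH1 and other epithelial genes. It had 3555 and 3432 reads in control, 3485 and 3195 in BRG1-wt, 3293 and 2855 in BRG1-mut, 4627 and 2304 in BRM-wt and 4077 and 4021 in BRM-mut. The 2 BRM-wt libraries lay on either side of all others after scaling, at 4181 and 2862 normalised reads. Log2 differences from control were -0.13 (SE 0.18) in BRG1-wt, -0.17 (SE 0.18) in BRG1-mut, -0.019 (SE 0.18) in BRM-wt and 0.11 (SE 0.17) in BRM-mut. Both BRG1-mut libraries lay below both control libraries, as did 25% of all genes. With the GC trend of each library divided out, the differences came to -0.058, -0.011, -0.028 and 0.0071, with standard errors of 0.087 to 0.089. The antisense gene ZEB1-AS1 overlaps ZEB1 and had 197 to 348 reads per library.

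Splicing tables list exon events whose inclusion, the PSI or fraction of transcripts with the exon, changed by the authors' MISO criterion between 1 library of a group and the control library that shares its replicate number. Among the 396 to 977 events in each of the 8 tables, the members had 1 exon, in ZEB1, in 2 listings. It is a 156-base exon at chr10:31661947-31662102 of GRCh37 (plus strand), between the exon that holds the ZEB1 start codon and a further exon at chr10:31676053-31676195. In replicate 1 the PSI was 0.20 in control, 0.70 in BRG1-wt and 0.72 in BRM-wt, a difference of 0.50 and 0.52. Both values are set against the same control library, so they are not 2 independent measurements, and the reads behind them are unknown. The exon was not listed in replicate 2 of either group nor in any table of the mutants, and a missing entry gives no PSI. In GENCODE, 6 of 23 ZEB1 transcripts have this exon and none of those 6 is of the protein-coding type. The further exon, at those coordinates, is in 9 transcripts, also none of the protein-coding type. The PSI weighs forms with and without the 156-base exon that both join to the further exon. It therefore gives no share among protein-coding ZEB1 transcripts. Of the 6 transcripts with the 156-base exon, 1 carries a reading frame and is annotated for nonsense-mediated decay. In it, 58 coding bases of the first exon run on into 101 bases of the 156-base exon and stop there after 53 codons. The stretch is shown from the first base of the exon, with the stop codon in capitals, because the reading frame of that transcript ends there. Any change in protein-coding ZEB1 transcripts was not measured by this event.
ZEB1 exon, chr10:31661947-31662050, plus strand, GRCh37: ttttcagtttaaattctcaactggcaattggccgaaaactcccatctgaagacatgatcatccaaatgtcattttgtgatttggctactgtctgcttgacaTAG

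ZEB2 (ENSG00000169554, chromosome 2 from 145121931 to 145278624, minus strand), the second ZEB repressor, came closest to the threshold. Its reads were 112 and 137 in control, 261 and 199 in BRG1-wt, 138 and 128 in BRG1-mut, 264 and 130 in BRM-wt and 146 and 160 in BRM-mut. After scaling, both wild types lay above both control libraries and both mutants overlapped them, although BRM-wt b, at 162 normalised reads, did not exceed BRM-mut b, which also had 162. The ZEB2 difference from control on the log2 scale was 0.82 (SE 0.26, 1.76-fold with a 95% confidence interval of 1.16 to 2.69, adjusted p = 0.643, limma) in BRG1-wt and 0.67 (SE 0.27, 1.59-fold, adjusted p = 1.00) in BRM-wt. It was 0.12 (SE 0.27) in BRG1-mut and 0.19 (SE 0.27) in BRM-mut. BRG1-wt exceeded BRG1-mut by 0.70 (SE 0.26, adjusted p = 0.977), and BRM-wt exceeded BRM-mut by 0.47 (SE 0.26, adjusted p = 0.991). With the GC trend of each library divided out, the standard errors were smaller and the ZEB2 difference was 0.91 (SE 0.16, unadjusted p = 0.000431, adjusted p = 0.0539) in BRG1-wt and 0.67 (SE 0.17, adjusted p = 0.186) in BRM-wt, still short of the threshold. In those fits 0.777% and 0.944% of all genes were called (135 and 164 genes). BRG1-wt and BRM-wt differed by 0.15 (95% confidence interval -0.43 to 0.73) for ZEB2, so the data do not order the 2 ATPases.

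A ratio inside a library needs no scaling. ZEB1 and ZEB2 have like exonic GC content, 41.3% and 40.6%, so the share of ZEB2 among the reads of both was taken as a description. It was 3.05% and 3.84% in control, 4.02% and 4.29% in BRG1-mut and 3.46% and 3.83% in BRM-mut. It was 6.97% and 5.86% in BRG1-wt and 5.40% and 5.34% in BRM-wt. All 4 wild-type libraries, at 5.34% to 6.97%, lay above all 6 others, at 3.05% to 4.29%, and the 2 BRM-wt libraries nearly coincided. The 95% Wilson intervals, which cover counting error only, were 4.52% to 6.31% in BRM-wt b and 3.62% to 5.08% in BRG1-mut b, so these neighbours overlapped in counting error. The pattern was noticed in these libraries and has no test here. How often other pairs of genes part the libraries in this way was not counted. ZEB1, the other part of the share, itself lay below both control libraries in both BRG1-wt libraries after scaling.

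**Figure D3:**
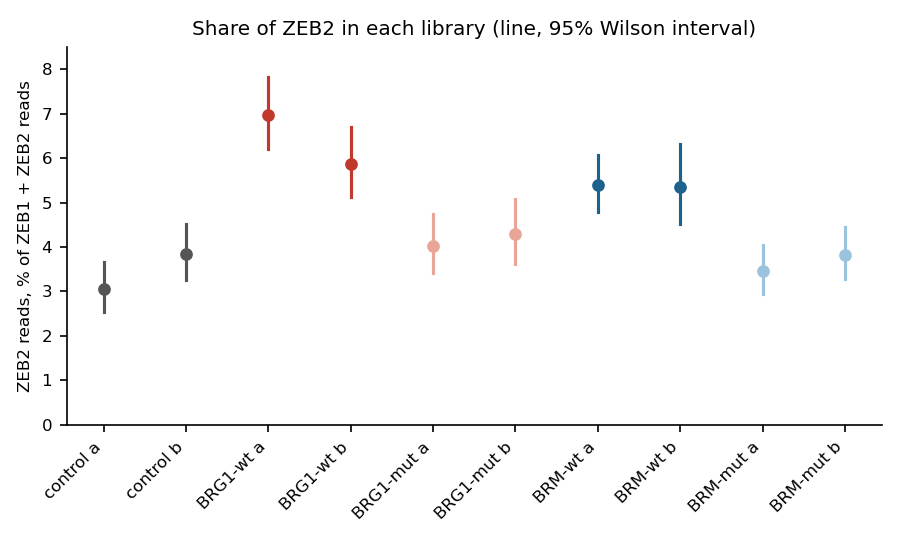
Share of ZEB2 among the reads of ZEB1 and ZEB2 (y axis, percent) in each of the 10 libraries (x axis), with 95% Wilson intervals as lines. The 4 libraries of BRG1-wt and BRM-wt range from 5.34% to 6.97% and the 6 others from 3.05% to 4.29%.

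SNAI2 (ENSG00000019549, chromosome 8 from 49830157 to 49834299, minus strand), the Slug repressor, was at the limit of detection. It had 2 and 0 reads in control, 3 and 1 in BRG1-wt, 1 and 1 in BRG1-mut, 4 and 1 in BRM-wt and 1 and 0 in BRM-mut. It was below the filter on low reads and was not called in any comparison of the fits without it. A library with 0 reads allows up to 3.

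The deposited means themselves, 1 per table over 2 group and 2 control libraries, were compared between tables as a description that needs no recovered reads. Ratios past 1.5-fold in either direction were 4 in number. They were CDH1 and CLDN1 in BRG1-wt over BRG1-mut (2.01 and 1.90), SNAI2 in BRM-wt over BRM-mut (2.43) and CDH1 in BRG1-mut over BRM-mut (0.604). These genes had few reads, with CDH1 means of 3.05 to 6.27 and lower ones for CLDN1 and SNAI2. ZEB2 reached 1.33 and 1.21 for wild type over mutant of BRG1 and BRM, each a lower bound because both tables hold the same control libraries. Among all tested genes 6.79% were past 1.5-fold for the BRG1 pair, 6.69% for the BRM pair, 1.79% for BRG1-wt over BRM-wt and 13.3% for BRG1-mut over BRM-mut. CLDN1 and SNAI2 are not among the tested genes, so these shares do not describe genes with so few reads.

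Genes that change splice form in the epithelial to mesenchymal transition, and the factors that splice them, gave a wider view. Of the 15 listed genes outside the members, 7 had listed events, 14 exons in 35 listings. The share of all genes with a listed event was not counted, so these counts are a description and show no enrichment. CTNND1, which encodes p120-catenin, the partner that holds cadherins at the membrane, had the most. Its 289-base exon at chr11:57558857-57559145, with the downstream exon that starts at 57561482, went from a PSI of 0.20 to 0.53 and from 0.31 to 0.57 in the 2 replicates of BRG1-mut. In BRM-wt the same exon went from 0.20 to 0.54 in replicate 1 and from 0.31 to 0.09 in replicate 2, opposite directions. In BRM-mut it went from 0.20 to 0.08 in replicate 1, and BRG1-wt had no listing.

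**Figure D4:**
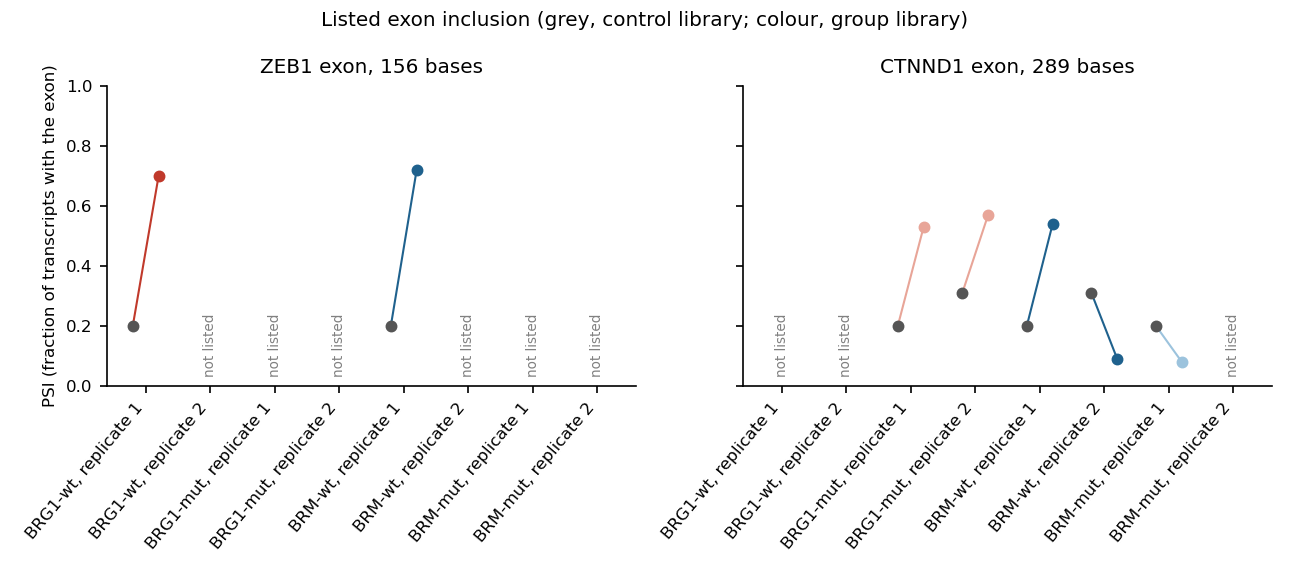
PSI (y axis, fraction) of the ZEB1 exon and of the 289-base CTNND1 exon in each of the 8 splicing tables (x axis), with the control library in grey joined to the library of the group in colour. The ZEB1 exon is listed in 2 tables, both with an increase from 0.20, and the CTNND1 exon in 5, of which 3 show an increase and 2 a decrease.

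Further markers of both identities were taken from lists chosen with earlier results known. Of 30 epithelial genes 16 passed the filter on low reads, and of 30 mesenchymal genes 25. A gene can pass through the group in which it is high, so the counts are a description. In the mesenchymal list 2 genes were called higher in BRG1-wt and 2 in BRM-wt against control, S100A4 in both, and no gene was called lower. Of all 17943 genes, 0.145% and 0.184% were called in either direction. At an unadjusted p under 0.05 the mesenchymal genes were 11 in BRG1-wt, 9 in BRM-wt, 1 in BRG1-mut and 0 in BRM-mut, all higher. The share of all genes, in either direction, was 4.53%, 4.39%, 1.65% and 0.713% in that order, and it holds for the epithelial list below too. The median log2 difference of the tested mesenchymal genes was 0.80 in BRG1-wt, 0.22 in BRG1-mut, 0.56 in BRM-wt and -0.22 in BRM-mut. In the epithelial list 0 genes were called by limma-voom, with 3 genes in BRG1-wt, 4 in BRM-wt, 1 in BRG1-mut and 0 in BRM-mut at an unadjusted p under 0.05, all higher. Its medians were 0.57 for BRG1-wt, 0.48 for BRG1-mut, 0.48 for BRM-wt and 0.035 for BRM-mut. The median over all tested genes was 0.013, 0.00025, -0.024 and -0.017 in that order. Since the lists were chosen with results known, they are no independent support for a direction. Where no gene of a list passed, the 2 highest per kilobase were taken. In the epithelial list these were CXADR, a junction adhesion protein, and OCLN, occludin of tight junctions. CXADR differed from control by -0.21 (SE 0.16) in BRG1-wt and -0.10 (SE 0.16) in BRM-wt on the log2 scale, and OCLN by -0.15 (SE 0.17) and -0.082 (SE 0.17).

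**Figure D5:**
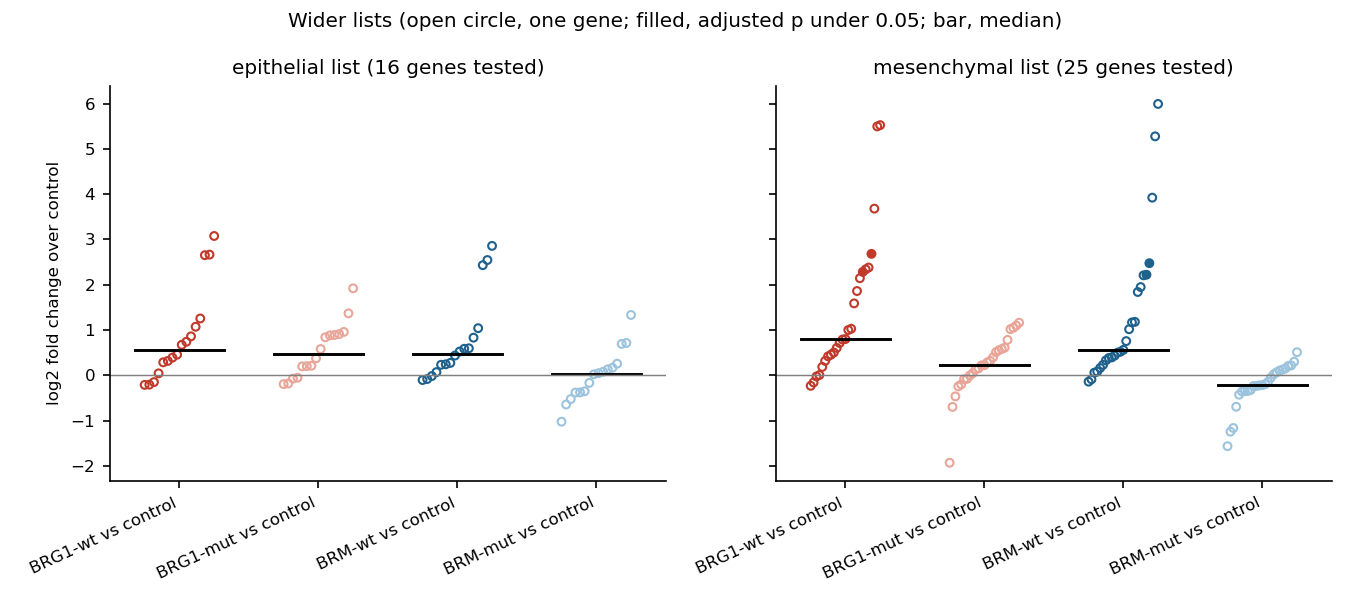
Log2 fold change over control (y axis) of the tested genes of the epithelial list (left, 16 genes) and the mesenchymal list (right, 25 genes) for the 4 groups (x axis), with a bar at the median and filled circles for an adjusted p under 0.05. In BRG1-wt and in BRM-wt 2 mesenchymal genes are filled, S100A4 in both, and no gene is filled in the mutants.

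S100A4, a calcium-binding protein of motile cells, had 61 and 58 reads in control, 537 and 296 in BRG1-wt, 60 and 62 in BRG1-mut, 333 and 308 in BRM-wt and 60 and 52 in BRM-mut. All 4 wild-type libraries stood far above the rest. S100A4 was 6.41-fold higher in BRG1-wt than in control (95% confidence interval 3.95 to 10.4, adjusted p = 0.0379, limma) and 5.56-fold higher in BRM-wt (3.40 to 9.09, adjusted p = 0.0336). It was also 6.20-fold higher in BRG1-wt than in BRG1-mut (adjusted p = 0.0480) and 6.37-fold higher in BRM-wt than in BRM-mut (adjusted p = 0.0262). The BRG1-wt call against control was lost without any 1 of its 4 libraries (adjusted p 0.0880 to 0.493), and the BRM-wt call without control a (0.445) or control b (0.419), while the log2 difference stayed between 2.31 and 2.99. With only the 4 libraries compared in the fit, the BRM-wt call was lost too (0.413). The call against BRG1-mut was lost without any 1 of its 4 libraries (0.144 to 0.635) and that against BRM-mut without either BRM-mut library (0.336 and 0.287). S100A3 overlaps S100A4 on the same strand and had 1 to 72 reads.

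KRT8 and KRT18, the keratin pair of simple epithelia, were higher in the wild-type libraries but did not pass the threshold. KRT8 had 116 and 77 reads in control, 990 and 706 in BRG1-wt, 217 and 136 in BRG1-mut, 368 and 822 in BRM-wt and 131 and 47 in BRM-mut. KRT18 had 283 and 119, 1167 and 1274, 478 and 235, 982 and 942, and 476 and 213 reads in the same order. Both wild types stood above both control libraries for either keratin. The log2 differences of KRT8 were 3.08 (SE 0.60, adjusted p = 0.173, limma) in BRG1-wt and 2.55 (SE 0.62, adjusted p = 0.352) in BRM-wt. In BRM-wt the KRT8 difference was 3.40 without BRM-wt a, where it passed (adjusted p = 0.0311), and 1.79 without BRM-wt b (adjusted p = 0.175). The differences of KRT18 were 2.65 (SE 0.44, adjusted p = 0.102) and 2.43 (SE 0.45, adjusted p = 0.152). With control a left out they were 3.23 and 3.02, and with control b left out 2.09 and 1.86. With the GC trend of each library divided out, a fit chosen after seeing the data, both keratins passed in both wild types (adjusted p = 0.0118 and 0.0201 for KRT8, 0.00925 and 0.00834 for KRT18). The 2 genes overlap by 1084 bases on opposite strands, and without strand their reads there cannot be told apart. KRT19 had fewer than 10 reads in both libraries of every group.

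None of the 9 tested genes among 10 junction partners was called by limma-voom in any of the 7 comparisons. At an unadjusted p under 0.05, 1 of the 9 was higher in BRG1-wt and 1 in BRM-wt against control, with 4.53% and 4.39% of all genes in either direction. The catenins that anchor cadherins to actin were the most abundant of the list per kilobase. CTNNB1, beta-catenin, differed from control by -0.052 (SE 0.094) in BRG1-wt and -0.036 (SE 0.094) in BRM-wt on the log2 scale, and CTNNA1, alpha-catenin, by 0.074 (SE 0.12) and 0.016 (SE 0.12). Among the 15 tested genes of the splicing list none was called by limma-voom, with 3 genes, CD44 among them and all higher, at an unadjusted p under 0.05 in BRG1-wt and in BRM-wt against control. The shares of all genes at that level were again 4.53% and 4.39%. The 2 most abundant per kilobase were ENAH, an actin regulator, and SLK, a kinase. ENAH differed from control by 0.097 (SE 0.16) in BRG1-wt and 0.23 (SE 0.16) in BRM-wt on the log2 scale, and SLK by -0.064 (SE 0.20) and 0.10 (SE 0.20). CD44, a cell surface glycoprotein with many splice forms that is also in the mesenchymal list, had 246 normalised reads in BRG1-wt and 350 in BRM-wt against 5.94 in control (adjusted p = 0.0974 and 0.0633).

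Markers of other cell types were read beside these results. The epithelial markers CDH1, EPCAM, KRT8, KRT18 and KRT19 summed to 235 to 416 normalised reads in control, 1978 to 2096 in BRG1-wt, 466 to 683 in BRG1-mut, 1251 to 2226 in BRM-wt and 316 to 558 in BRM-mut, nearly all from the 2 keratins. All 5 fibroblast markers passed the filter and summed to 3947 to 4397 in control, 5784 to 6152 in BRG1-wt, 5357 to 5960 in BRG1-mut, 3738 to 8630 in BRM-wt and 4436 to 4912 in BRM-mut, most of it COL3A1. Of 3 leukocyte markers 2 passed, and PTPRC made up nearly all of their sum of 1173 to 2072. Of 3 endothelial markers 2 were matched, CDH5 and VWF, neither passed, and their sum was 0.942 to 13.7. The part of these markers in the results above was not tested.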

How the data were processed

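RNA-seq was from 10 libraries of C33A cells. Per the submitters' processing notes, the authors mapped reads to GRCh37 with TopHat2 2.0.4, counted genes with HTSeq 0.6.1 and ran DESeq2, and the strand setting of the counting is not given in the sources used here. The 4 deposited expression tables give, per gene, a mean signal, which is the mean of size-factor normalised counts over 2 group and 2 control libraries. They also hold the authors' fold changes, standard errors and p-values, which were not used. The 8 deposited MISO tables give PSI as a fraction in 2 libraries, and their Bayes factors and log2 ratios were not used. A second copy of the BRG1-wt table was left out.

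Whole reads per library were recovered from the means, which have 15 significant digits. The 4 smallest means of a table are 1 read in 1 library and so give the size factors. The 2 control libraries are the ones whose reads agree between tables in 100% of 4766 to 4863 low genes (at most 56.1% for any other pair of libraries). The 10 reads of a gene were then solved from its 4 means by lattice reduction, which met all 4 means for 32119 of 32119 genes with a mean above 0. For the members any other whole-number solution would lie at least 202000 reads away, a bound that 46 highly expressed genes, SMARCA2 among them, do not have. Size factors computed from the recovered reads differed from the deposited ones by at most 0.00012 of their value. Genes with at least 10 reads in at least 2 libraries (17943) were tested with limma 3.58.1 (voom, 5 groups in 1 fit, median-of-ratios scaling) in R 4.3.3, with Benjamini-Hochberg adjustment over all of them and a threshold of 0.05. Coordinates, symbols (55139 identifiers), exonic length and GC content came from GENCODE lifted to GRCh37. Python 3.11.15 with scipy 1.17.1 was used for intervals. The recovery and the fit were tested on simulated data. Depth was 30761464 to 43364950 reads on genes per library.

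Named were all 10 members, the genes of each wider list past the threshold (at most 4 per list and comparison by p), the 2 highest of a list per kilobase where none passed, and SMARCA4 and SMARCA2. The other list genes named were chosen after their values were seen, and some list genes are not reported here. The members and lists were chosen with earlier results of these data known. Alternatives were another scaling, other filters, limma-trend with pseudocounts of 0.5 and 5, fits of the 4 compared libraries, GC corrections in 50 bins, and each library left out.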

Additional observations from a re-analysis of the deposited data

How the results depend on the processing

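No member was called in any of the 84 other fits, and the lowest adjusted p of a member in any of them was 0.0539 (limma, ZEB2 in BRG1-wt with the GC trend of each library divided out, a fit chosen after seeing the data). No paired analysis was possible because the recovered libraries carry no replicate numbers. The calls over all genes moved more: with that GC correction they were 135 (BRG1-wt against control), 1 (BRG1-mut), 164 (BRM-wt), 100 (BRG1-wt against BRG1-mut), 162 (BRM-wt against BRM-mut) and 1 (BRG1-wt against BRM-wt). limma-trend with a pseudocount of 5 gave 73 in BRG1-wt, 65 in BRM-wt, 44 and 60 against the mutants. With 1 library left out they were 0 to 6 in BRG1-wt, 0 to 106 in BRM-wt, 0 for BRG1-wt against BRG1-mut and 0 to 84 for BRM-wt against BRM-mut. Of the deposited-mean ratios 2 were past 2-fold, and 0 exon events of members were listed in both replicates of a group. Not every member was tested in each of these fits. CDH1 could not be fitted where it failed the filter (50 reads, and some fits with fewer libraries). The fits at 50 reads held 5 members and also lacked CDH3 and EPCAM. Fits of the 4 compared libraries held 6 or 7 members, and CDH3 was missing from some of them. CLDN1 and SNAI2 were fitted only without the filter. Of 617 other values for single genes, 542 kept direction and side of the threshold, 26 lost and 14 gained a call, and 35 changed sign.

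Sign changes outside the left-out libraries were all in values near 0. With the GC trend of each library divided out, TJP1 came to 0.0097 in BRG1-mut and -0.020 in BRM-mut, and VIM to -0.0047 in BRG1-mut and 0.046 in BRM-mut. With the GC trend subtracted, TJP1 came to 0.021 in BRG1-mut, 0.0098 in BRM-wt and -0.013 in BRM-mut, and VIM to -0.0060 in BRG1-mut and 0.055 in BRM-mut. Upper quartile scaling gave VIM -0.028 in BRG1-mut. The cause was not tested. With 1 library left out, differences from control ranged as follows. CDH1 was -0.35 to 1.04 in BRG1-mut. CDH3 was -0.40 to 0.82 in BRG1-mut, -0.064 to 0.92 in BRM-wt and -0.18 to 0.80 in BRM-mut. EPCAM was -0.41 to 0.043 in BRG1-wt and -0.19 to 0.79 in BRM-mut. TJP1 was -0.089 to 0.069 in BRM-wt and -0.083 to 0.18 in BRM-mut. CDH2 was -0.15 to 0.41 in BRG1-mut and -0.60 to 0.34 in BRM-mut. VIM was -0.031 to 0.11 in BRG1-mut and -0.10 to 0.054 in BRM-mut. ZEB1 was -0.30 to 0.25 in BRM-wt. ZEB2 was -0.075 to 0.31 in BRG1-mut and -0.0039 to 0.39 in BRM-mut. BRG1-wt minus BRM-wt was -0.12 to 0.42 for CDH1 and -0.12 to 0.46 for ZEB2. With at most 14 reads in any library, CDH1, CDH3, CLDN1 and SNAI2 were limited by depth.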
